A study of Rattus norvegicus with 6 samples.

Results

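The 10 genes described here are Srf, which encodes serum response factor (SRF), and 9 genes of the contractile actin cytoskeleton, namely the actins Acta2, Actg2, Actb and Actg1 with Cnn1, Tagln, Myl9, Tpm1 and Myh11. They were taken by symbol from a table of raw read counts per gene, and all 10 were found among its 37209 symbols. RNA was sequenced from primary, wild-type bone marrow mesenchymal stem cells (BMSCs) of rat femur, stromal progenitors grown as a culture. Cells grown in αMEM with 10% fetal bovine serum to 80% confluence were given either 3% cigarette smoke extract (CSE), made by drawing cigarette smoke into a liquid, or serum-free medium as the control, each for 6 h, with 3 libraries per group. The labels do not say what medium carried the extract, and serum is a known activator of SRF, so an effect of the extract and one of serum cannot be told apart. Nor do they say whether the 3 libraries of a group are separate cultures or animals. The p-values therefore cover the spread among these libraries only, and that spread may be technical. In bulk RNA, fewer cells of a type and less RNA per cell cannot be told apart.

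SRF is a transcription factor that binds the CArG box, a DNA element made of CC, a run of A or T bases and GG. It works with partner factors. The myocardin-related factors (MRTFs) are held in the cytoplasm by free actin monomers and released when actin is drawn into filaments, whereas the ternary complex factors answer to MAP kinase signalling. Through the MRTFs SRF drives genes of the cytoskeleton, including Srf itself and actin genes. Cultured mesenchymal stem cells form stress fibres and commonly express smooth muscle genes such as Acta2 and Tagln.

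Library totals ranged from 19433637 to 22589327 counts with CSE and from 15958621 to 18651194 in the control. All 12 mesenchymal stromal markers passed the filter on low counts. By the edgeR test described below 4 were higher and 6 lower, against 36.3% and 37.5% of all tested genes. Vcam1 (log2 fold change 2.51, on 4 to 9 counts in the control), Cd44 (1.09), Thy1 and Itgb1 were higher. Cxcl12 (−2.17), Pdgfra, Pdgfrb, Prrx1, Nt5e and Col1a1 were lower, and Eng and Lepr were not called. Of 8 markers of mural cells, the smooth muscle cells and pericytes of vessels, 7 passed, and Mcam, Cspg4, Notch3 and Myocd, the last also in the list of SRF partners, were lower, Abcc9 was higher (0.50) and Kcnj8 and Des were not called. The summed mural level was 204 to 212 normalized counts per 1000000 counts (CPM) with CSE and 315 to 347 CPM in the control. All 8 macrophage markers passed, with Lyz2 and Cd68 higher, Ptprc, Csf1r and Cd14 lower (−0.33, −0.25 and −1.45) and 3 not called. Their summed levels were 1689 to 1744 CPM with CSE and 1511 to 1556 CPM in the control, of which Lyz2 alone averaged 1413 CPM with CSE and 1174.5 CPM in the control. Striated muscle markers summed to at most 2.18 CPM with CSE and 2.52 CPM in the control, with Myog, Ckm and Myh6 at 0 throughout, and endothelial markers to at most 4.34 CPM with CSE and 7.58 CPM in the control, with Emcn at 0 throughout. The part of other cell types in the results was not tested.

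RefSeq promoter windows on the rat assembly GRCr8, from 250 bases before to 50 after a transcript start, were found for 6 of the 10 genes, namely Srf, Acta2, Actg2, Actg1, Cnn1 and Tpm1. Actb, Tagln, Myl9 and Myh11 were not matched. The CArG box was searched on both strands, on which it reads alike, as 2 outer bases at each end around 6 inner bases that are all A or T. A CArG-like match was allowed 1 inner base outside A and T. A CArG box lay in 2 of the 6 windows, against 1.64% of 33469 windows in the whole table, and CArG-like matches in 1 of 6, against 8.10%. The windows of Srf (chr9:21923826-21924125, plus strand), Actg1 (chr10:106120902-106121201, minus strand) and Acta2 (chr1:241172454-241172753, minus strand) are shown because they hold those matches, which stand in capitals.
Srf: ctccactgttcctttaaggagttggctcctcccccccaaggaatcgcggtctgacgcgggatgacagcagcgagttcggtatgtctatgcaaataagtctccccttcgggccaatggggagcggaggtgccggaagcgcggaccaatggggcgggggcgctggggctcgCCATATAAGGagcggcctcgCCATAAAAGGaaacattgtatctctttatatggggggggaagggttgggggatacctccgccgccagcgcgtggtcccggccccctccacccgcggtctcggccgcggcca
Actg1: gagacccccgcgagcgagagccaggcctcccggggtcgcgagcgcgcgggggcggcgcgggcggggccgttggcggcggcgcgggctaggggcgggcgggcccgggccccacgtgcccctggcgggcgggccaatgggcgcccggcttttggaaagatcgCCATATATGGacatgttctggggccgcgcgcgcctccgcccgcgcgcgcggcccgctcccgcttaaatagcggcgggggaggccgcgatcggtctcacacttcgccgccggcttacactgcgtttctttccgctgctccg
Acta2: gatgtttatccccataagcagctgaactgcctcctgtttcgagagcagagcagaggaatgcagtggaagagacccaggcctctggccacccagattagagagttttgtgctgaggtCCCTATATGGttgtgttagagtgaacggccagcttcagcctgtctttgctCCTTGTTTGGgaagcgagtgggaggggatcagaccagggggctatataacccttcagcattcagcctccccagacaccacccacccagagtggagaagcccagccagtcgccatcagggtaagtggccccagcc
In Srf the 2 boxes, CCATATAAGG and CCATAAAAGG, begin 81 and 61 bases before the start, and in Actg1 the box CCATATATGG begins 90 bases before it. The matches in Acta2, CCCTATATGG and CCTTGTTTGG, are CArG-like and begin 134 and 84 bases before the start. The windows of Actg2, Cnn1 and Tpm1 held no match, which says only that these letters are not in them. That of Actg2 reaches coding sequence within the 50 bases after the transcript start used, so it may not cover this gene's promoter.

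**Figure D1:**
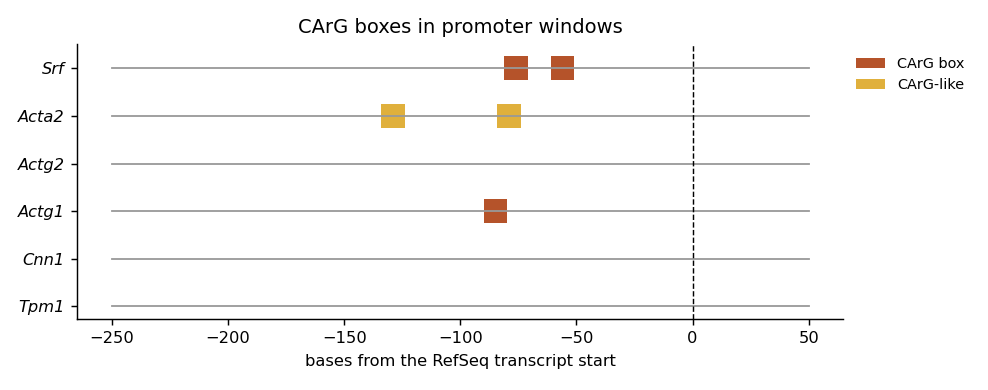
Positions of CArG boxes (red) and CArG-like matches (yellow) in the 6 promoter windows, in bases from the RefSeq transcript start (dashed line). The boxes of Srf and Actg1 and the matches of Acta2 all begin between 61 and 134 bases before the start. The window of Actg2 may not cover that gene's promoter.

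Exposure to CSE for 6 h went with lower RNA of Srf, of 3 actin genes and of the tropomyosin and smooth muscle myosin genes, while Cnn1 rose by a small amount under TMM scaling and Actg2, Tagln and Myl9 were not called. Of the 10 genes, 6 (Srf, Acta2, Actb, Actg1, Tpm1 and Myh11) were lower with CSE by edgeR's quasi-likelihood test, Cnn1 was higher, and Actg2, Tagln and Myl9 did not pass the threshold of 0.05 on the adjusted p. Of the 13390 genes tested, 73.9% passed, with 36.3% higher and 37.5% lower, the background against which a count of 6 lower among 10 is read. The CPM of the groups did not overlap in 7 of the 10 genes, with 1 higher and 6 lower, against 75.8% of all tested genes, with 37.2% higher and 38.6% lower. The median log2 fold change of CSE over control was −0.68 over the 10 genes and −0.02 over all tested genes. Values below are normalized CPM of each library (TMM scaling), then means ± SD over 3 libraries and log2 fold changes ± SE. Levels of different genes are not compared, since CPM is not corrected for transcript length.

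**Figure D2:**
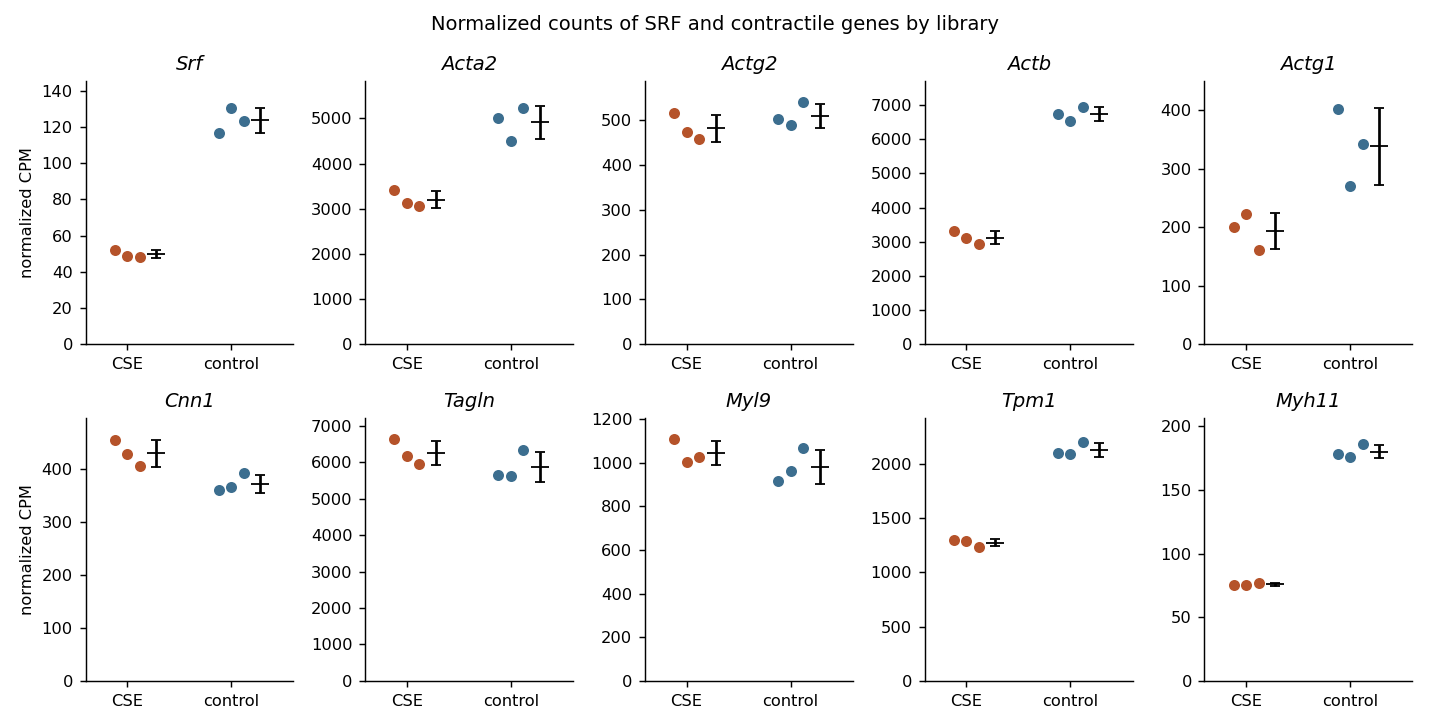
Normalized CPM (y axis, from 0) of the 10 genes in each library, CSE left and control right, with mean ± SD over 3 libraries as bars. The CSE libraries of Srf, Actb and Myh11 lie between 48.3 and 52.1, 2942 and 3317, and 75.0 and 77.0 CPM, all below the control libraries, while those of Actg2, Tagln and Myl9 overlap the control.

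Srf had the largest fall of the 10. It stood at 52.1, 48.6 and 48.3 CPM in the CSE libraries, against 117, 130 and 124 CPM in the control libraries. The groups lay far apart, and the spread within each was small. The mean was 49.7 ± 2.15 CPM with CSE and 124 ± 6.87 CPM in the control (SD, n = 3 each). The log2 fold change was −1.31 ± 0.06 (edgeR adjusted p = 1.3e-12). This is 0.402 of the control level and lies at percentile 9.57 of the fold changes of all tested genes. Among 8552 other genes with a mean of at least 10 CPM, those whose centred log2 CPM over the 6 libraries ran closest to Srf were Synj2, Tns3, Rfc5, Siva1 and Eml1, at Euclidean distances of 0.103 to 0.113. Myh11, at 0.187, had 35 of those genes closer to Srf than itself, and Actb, at 0.297, had 189. The 5 closest genes had log2 fold changes of −1.28 to −1.34, near that of Srf. With the groups this far apart, such closeness largely restates the fold change.

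The actin genes did not move alike. Actb encodes the beta actin of all non-muscle cells and is often used as a reference gene. It had 3317, 3112 and 2942 CPM in the CSE libraries and 6728, 6535 and 6934 CPM in the control libraries. Every CSE library was below every control library, and Actb averaged 3123 ± 188 CPM with CSE and 6732 ± 199 CPM in the control (SD, n = 3 each). Its log2 fold change was −1.11 ± 0.05 (edgeR adjusted p = 6.6e-13).

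Acta2 encodes the alpha actin of vascular smooth muscle and of myofibroblasts. Its CSE libraries held 3405, 3127 and 3061 CPM and its control libraries 5005, 4497 and 5223 CPM. These did not overlap either (log2 fold change −0.62 ± 0.05, edgeR adjusted p = 1.3e-08). Actg1 encodes the gamma actin of non-muscle cells, and its reads are uncertain, because near-identical actin copies may have shared them. The libraries had 200, 222 and 161 CPM with CSE and 402, 270 and 343 CPM in the control. Actg1 was the most variable of the 10, with SDs of 15.9% of the mean with CSE and 19.6% in the control, and control replicate 2 stood nearest to the CSE libraries. It fell by 0.80 ± 0.11 on the log2 scale (edgeR adjusted p = 5.9e-06).

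Actg2, the gamma actin gene of visceral smooth muscle, was the exception among the abundant actins. Its CSE libraries had 515, 474 and 457 CPM and its control libraries 502, 489 and 540 CPM. The groups overlapped, and the test was not passed (log2 fold change −0.08 ± 0.05, edgeR adjusted p = 0.169). Scaled by upper quartiles or by total counts alone it was called lower, at −0.22 and −0.27 (edgeR adjusted p = 0.0013 and 1.2e-04, within a range of 1.2e-04 to 0.571 over all alternatives), and likewise without CSE replicate 1, at −0.13 (edgeR adjusted p = 0.0401). Those scalings also shifted the median of all tested genes, by −0.14 and −0.19. Relative to that median Actg2 was at −0.06 under TMM, upper-quartile and total-count scaling.

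Taken as shares of the counts of 6 actin genes within a library, which no library scaling can alter, Actb was lower and the smooth muscle actins Acta2 and Actg2 were higher with CSE. Counts were not corrected for length, so these shares are compared between groups and not between genes. Near-identical actin copies may have shared reads, for the other actins as for Actg1. The shares here and the ratios to Actb below carry that limit. Actb held 44.5%, 44.8% and 44.4% in the CSE libraries and 53.2%, 55.4% and 53.1% in the control libraries. Acta2 held 45.7%, 45.0% and 46.2% with CSE and 39.6%, 38.1% and 40.0% in the control. Actg2 held 6.88 ± 0.0489% with CSE and 4.08 ± 0.0979% in the control libraries (SD, n = 3 each). For these 3 genes the groups did not overlap (exact 2-sided permutation p = 0.1 each, the smallest that 3 libraries against 3 allow). The share of Actg1 was 2.77 ± 0.391% with CSE and 2.70 ± 0.450% in the control and overlapped (exact permutation p = 0.7). Together the 6 actin genes had 7009 ± 414 CPM with CSE and 12505 ± 639 CPM in the control (SD, n = 3 each, exact permutation p = 0.1). The striated actins Acta1, with 166 to 265 counts with CSE and 266 to 371 in the control, and Actc1, with 4 counts in all, made up little of the sum.

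The genes that load actin filaments split by member. Myh11 encodes the myosin heavy chain of smooth muscle, a late marker of that cell type. Its libraries had 75.7, 75.0 and 77.0 CPM with CSE, against 179, 176 and 186 CPM in the control. They lay closer together than those of any other of the 10 genes with CSE (SD 1.36% of the mean) and far from the control (log2 fold change −1.25 ± 0.05, edgeR adjusted p = 2.6e-13). Tpm1 encodes a tropomyosin, which lies along the filament and governs myosin access. It had 1298, 1292 and 1235 CPM in the CSE libraries and 2102, 2088 and 2199 CPM in the control libraries. Without overlap between the groups, Tpm1 fell by 0.74 ± 0.04 on the log2 scale (edgeR adjusted p = 3.8e-11).

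Myl9 encodes a regulatory light chain of smooth muscle and non-muscle myosin, whose phosphorylation triggers contraction. Its CSE libraries had 1107, 1005 and 1025 CPM and its control libraries 916, 961 and 1067 CPM, which overlapped. The log2 fold change was 0.09 ± 0.05 (edgeR adjusted p = 0.139). Tagln encodes transgelin (SM22 alpha), an actin-binding protein and an early smooth muscle marker. It had 6634, 6177 and 5965 CPM with CSE and 5663, 5621 and 6345 CPM in the control. Here too the groups overlapped (log2 fold change 0.09 ± 0.05, edgeR adjusted p = 0.117). For both genes control replicate 3 was the control library that overlapped the CSE group. Without it they were called higher, Myl9 at 0.14 (edgeR adjusted p = 0.0196, in a range of 0.0196 to 0.499 over all alternatives) and Tagln at 0.14 (edgeR adjusted p = 0.0196, in a range of 0.0196 to 0.439). Their sign turned under upper-quartile scaling, to −0.05 for each, and under total counts alone, to −0.10 for each, along with the shift of all tested genes given above. Relative to the median of all tested genes both were at 0.11 under TMM, upper-quartile and total-count scaling.

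Cnn1 encodes calponin 1, which binds actin and restrains smooth muscle myosin. It had 454, 427 and 405 CPM in the CSE libraries and 359, 364 and 391 CPM in the control libraries. The groups did not overlap, although the lowest CSE library and the highest control library lay close. Cnn1 averaged 428 ± 24.7 CPM with CSE and 371 ± 17.0 CPM in the control (SD, n = 3 each), and its log2 fold change of 0.21 ± 0.05 passed (edgeR adjusted p = 0.0014). The call ended under upper-quartile scaling (0.07, edgeR adjusted p = 0.234) and under total counts alone (0.02, edgeR adjusted p = 0.750, the highest over all alternatives, of which the lowest was 4.0e-05). Relative to the median of all tested genes it was at 0.22 under TMM, upper-quartile and total-count scaling.

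**Figure D3:**
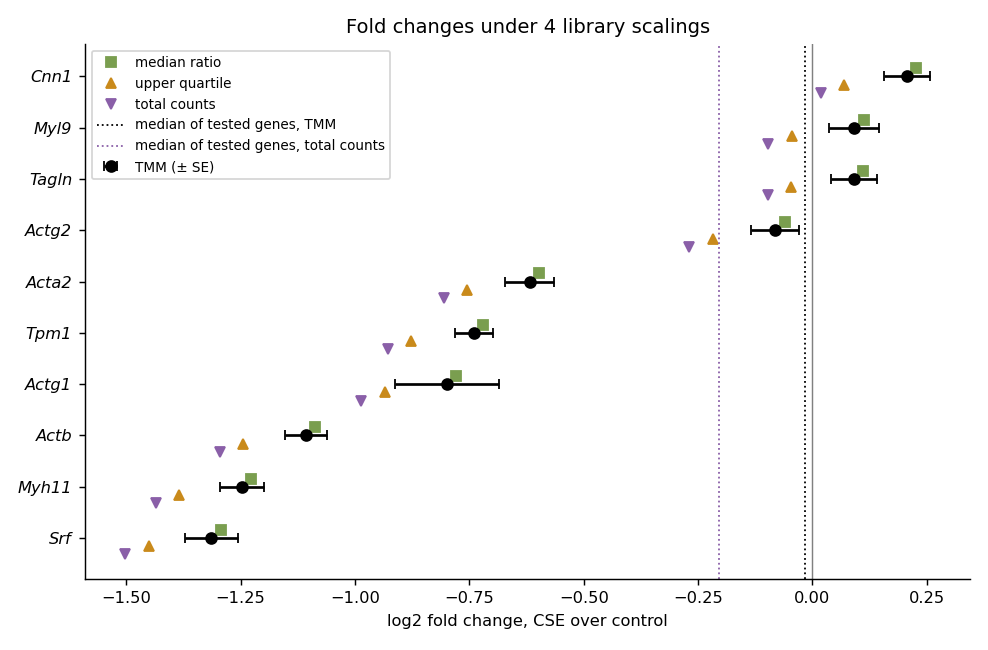
Log2 fold change of CSE over control (x axis) for each of the 10 genes under 4 library scalings, with SE bars for TMM, and the median of all tested genes under TMM (black dotted line) and total counts (purple dotted line). Srf, Myh11, Actb, Actg1, Tpm1 and Acta2 lie left of both medians under every scaling shown, whereas Tagln and Myl9 change sign.

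Whether the 10 genes changed unequally was tested on the ratio of each to Actb inside a library, again free of library scaling. Over 13233 genes with a count in every library, the ratio to Actb separated the groups without overlap in 86.4%, with 79.0% higher and 7.47% lower. Of the 9 other genes, 6 were higher without overlap, 2 were lower without overlap and Actg1 overlapped. The higher ones were Cnn1, Tagln, Myl9, Actg2, Acta2 and Tpm1, a share below that of all genes. Actb itself lies at percentile 12.6 of the fold changes of all tested genes. The log2 ratio of Cnn1 to Actb was −2.87, −2.87 and −2.86 in the CSE libraries and −4.23, −4.16 and −4.15 in the control libraries. It differed by 1.32 (exact permutation p = 0.1), or 2.49-fold. The log2 ratio of Tagln to Actb differed by 1.20, that of Myl9 by 1.20, that of Actg2 by 1.03 and that of Acta2 by 0.49. Srf and Myh11 were the lower ones. Their log2 ratios to Actb were −5.97 ± 0.04 with CSE and −5.77 ± 0.11 in the control for Srf, and −5.36 ± 0.10 with CSE and −5.22 ± 0.01 in the control for Myh11 (SD, n = 3 each, exact permutation p = 0.1 for each). For Myh11 the highest CSE library (replicate 3, −5.25) lay close to the lowest control library (replicate 1, −5.24).

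**Figure D4:**
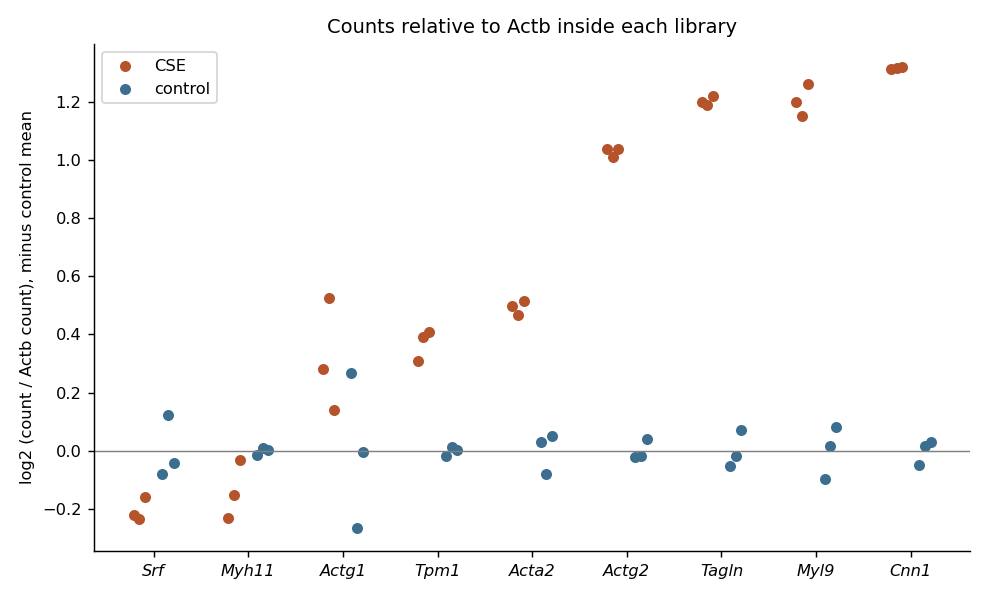
Log2 ratio of each gene's count to the Actb count in the same library (y axis, after subtracting the control mean), CSE left and control right for each gene. Cnn1, Myl9, Tagln and Actg2 sit more than 1 log2 unit above the control, Acta2 and Tpm1 by 0.49 and 0.37, and Srf and Myh11 slightly below it.

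Among all 45 pairs of the 10 genes, the log2 ratio of the pair separated the groups in 38, against 73.8% of all pairs among the genes with a count in every library. It overlapped in 7 pairs, of which 5 involved Actg1. The other overlapping pairs were Srf with Myh11 and Tagln with Myl9. The ratio of Srf to Myh11 was −0.61 ± 0.07 with CSE and −0.55 ± 0.10 in the control, and that of Tagln to Myl9 was 2.58 ± 0.04 with CSE and 2.58 ± 0.04 in the control libraries (log2, SD, n = 3 each). Acta2 and Tagln, often used together as markers, were not such a pair.

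Of the partner factors of SRF, 7 of 8 were tested, 2 were higher and 5 lower, with a median log2 fold change of −0.81. Among all tested genes 36.3% were higher and 37.5% lower. Elk1 was listed at 0. Mkl1, the older symbol of the MRTF-A gene Mrtfa, had 67.1 ± 1.78 CPM with CSE and 56.5 ± 2.21 CPM in the control (log2 fold change 0.25 ± 0.06, edgeR adjusted p = 6.6e-04). Its call ended under upper-quartile scaling (0.11, edgeR adjusted p = 0.0875) and total counts alone (0.06, edgeR adjusted p = 0.355), and the alternatives spanned 1.6e-04 to 0.355. Mkl2, the MRTF-B gene Mrtfb, was low throughout, with 1.36 ± 0.584 CPM with CSE and 3.26 ± 0.400 CPM in the control (−1.25 ± 0.28). Myocd, the gene of myocardin, the smooth muscle and heart partner of SRF, had 4.70 ± 0.584 CPM with CSE and 8.23 ± 0.510 CPM in the control (−0.81 ± 0.14). Elk3, a ternary complex factor gene, fell by 0.97 ± 0.05, and Fhl2, the gene of a LIM protein that binds SRF, rose by 0.38 ± 0.05.

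Cytoskeletal genes known as MRTF-SRF targets were mostly lower. Of 19 tested, 16 were lower and 2 higher, with a median of −0.77, against 37.5% lower and 36.3% higher among all tested genes. This list and the others around SRF and actin were chosen with earlier results of these data known. Their counts describe the lists and are no test of them. Vcl, the vinculin gene of focal adhesions, fell to 661 ± 8.07 CPM with CSE, against 1126 ± 14.5 CPM in the control (−0.77 ± 0.04). Tln1, the talin gene, was at −0.50 ± 0.04 and Actn1, the gene of the filament cross-linker alpha-actinin, at −0.65 ± 0.04. Ankrd1, a mechanically responsive gene, had 0.186 ± 0.158 CPM with CSE, on 3, 1 and 7 counts, and 2.30 ± 0.155 CPM in the control, on 42, 43 and 43 counts. Its log2 fold change was −3.57 ± 0.42, and −3.17 to −4.41 when each library was left out. The exceptions were Zyx, the zyxin gene, at 296 ± 19.5 CPM with CSE and 297 ± 4.29 CPM in the control (edgeR adjusted p = 0.953, and 0.0018 to 0.932 over the alternatives), Tes, the testin gene, which rose by 0.38 ± 0.05, and Dstn, the gene of the severing protein destrin, named after its values were seen, which rose by 0.37 ± 0.04. Thbs1 and Ctgf, singled out after their values were seen, are secreted-protein genes that also answer to YAP. Thbs1 had 1252 CPM with CSE and 13072 CPM in the control, and Ctgf 891 CPM with CSE and 5679 CPM in the control (−3.38 ± 0.04 and −2.67 ± 0.07).

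Other contractile genes were lower too, in 13 of 19 tested, with 2 higher and a median of −0.61. This compares with 37.5% lower and 36.3% higher among all tested genes. Mylk, the gene of the kinase that phosphorylates myosin light chain, fell to 68.5 ± 5.42 CPM with CSE, against 280 ± 3.18 CPM in the control (−2.03 ± 0.06). Lmod1, which encodes the smooth muscle actin nucleator leiomodin 1, had 28.7 ± 2.69 CPM with CSE and 226 ± 13.3 CPM in the control (−2.98 ± 0.07). Cald1, the caldesmon gene, was at −0.61 ± 0.04. Pln, the phospholamban gene, was at −3.05 ± 0.28, on 11, 8 and 17 counts with CSE and 79, 121 and 86 in the control. Smtn, the smoothelin gene, and Synpo2, the gene of an actin-bundling protein, both named after their values were seen, were at −1.49 ± 0.05 and −2.98 ± 0.20. Synpo2 had 19, 15 and 22 counts with CSE and 116, 155 and 153 in the control. Tpm2, another muscle tropomyosin gene, had 1645 ± 78.7 CPM with CSE and 1632 ± 101 CPM in the control and was not called (0.01 ± 0.05, edgeR adjusted p = 0.843, and 0.0026 to 0.978 over the alternatives). Tpm2 and Zyx were called lower by edgeR only under upper-quartile (−0.13 and −0.14) and total-count scaling (−0.18 and −0.19), and relative to the median of all tested genes they were at 0.03 and 0.01 under those scalings as under TMM. Cnn3, the acidic calponin gene, rose by 0.44 ± 0.04, and Csrp1, the gene of a LIM protein of smooth muscle chosen after its values were seen, was at 0.23 ± 0.05. For Csrp1 the alternatives gave edgeR adjusted p between 8.0e-07 and 0.407, and its call ended with upper quartiles (0.10, edgeR adjusted p = 0.0905) and with totals (0.04, edgeR adjusted p = 0.407). Of the 7 tested mural markers 4 were lower and 1 higher beside these genes, with the summed levels given above, and their part was not tested.

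Genes of non-muscle myosin and tropomyosin are set beside 36.3% higher and 37.5% lower among all tested genes. Of 8 tested, 2 were higher and 3 lower, with a median of 0.00. Under total counts alone 1 was higher and 6 lower, with a median of −0.19. Myh10, the gene of non-muscle myosin heavy chain IIB, fell to 263 ± 6.41 CPM with CSE, against 524 ± 13.3 CPM in the control (−0.99 ± 0.04). Myl6, an essential light chain gene, was higher at 1720 ± 112 CPM with CSE and 1301 ± 88.2 CPM in the control (0.40 ± 0.05). The regulatory light chain genes Myl12a and Myl12b were not called (0.04 ± 0.05 and −0.04 ± 0.05, edgeR adjusted p = 0.462 and 0.532, and 0.0102 to 0.914 and 9.0e-04 to 0.966 over the alternatives). Myl12b was called lower under upper-quartile and total-count scaling, and Myl12a under total counts alone.

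Early genes that SRF drives with ternary complex factors are read against 36.3% higher and 37.5% lower among all tested genes. Of 9 tested, 4 were higher and 4 lower, with a median of 0.21. The number lower was 2 with DESeq2 and without CSE replicate 1, CSE replicate 2 or Control replicate 1, and the median was −0.04 without CSE replicate 3 and 0.40 without CSE replicate 2. Egr1, a zinc finger factor gene, had 21.0 ± 1.94 CPM with CSE and 28.4 ± 1.03 CPM in the control (−0.43 ± 0.08). Fos, an AP-1 subunit gene, was at −0.49 ± 0.20 and overlapped between groups. Its call ended with DESeq2 (adjusted p = 0.0553) and without CSE replicate 1, CSE replicate 2 or Control replicate 1 (edgeR adjusted p = 0.163, 0.138 and 0.166, in a range from 0.0038 over all alternatives). Fosb, at means of 3.41 CPM with CSE and 1.45 CPM in the control, rose by 1.25 ± 0.28. Egr2 was not called (0.21 ± 0.24, edgeR adjusted p = 0.448, and 0.169 to 0.944 over the alternatives). Egr3 had the largest fall of the list, at −1.01 ± 0.43 on 5 to 15 counts with CSE and 15 to 19 in the control (edgeR adjusted p = 0.0422). Its call ended with DESeq2 (adjusted p = 0.104), with no filter (edgeR adjusted p = 0.0511) and without CSE replicate 1, CSE replicate 2, Control replicate 1 or Control replicate 3 (edgeR adjusted p = 0.196, 0.123, 0.10 and 0.0851), in a range that began at 0.0091. Ier2 and Junb, named after their values were seen, rose by 1.03 ± 0.06 and 0.80 ± 0.06.

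Genes of actin assembly and turnover were called in both directions, against 36.3% higher and 37.5% lower among all tested genes. Of 25 tested, 12 were higher and 8 lower, with a median of 0.12. This split depended on scaling, and under total counts alone 6 were higher and 12 lower, with a median of −0.07. Cfl1, the cofilin gene of filament severing, was at 0.30 ± 0.04 and its relative Cfl2 at −0.28 ± 0.05. Pfn1, the profilin gene of monomer supply, had 527 ± 37.6 CPM with CSE and 591 ± 31.3 CPM in the control (−0.17 ± 0.05, edgeR adjusted p = 0.0109). The call of Pfn1 ended without CSE replicate 2, CSE replicate 3 or Control replicate 2 (edgeR adjusted p = 0.0980, 0.0517 and 0.0587, in a range from 1.1e-05 over all alternatives). Pfn2, the gene of another profilin, was not called (0.13 ± 0.20, edgeR adjusted p = 0.577, and 0.339 to 0.969 over the alternatives). Cttn, the cortactin gene, had 71, 65 and 79 counts with CSE and 157, 168 and 57 counts in the control, where replicate 3 stood apart and the groups overlapped (−0.92 ± 0.30, edgeR adjusted p = 0.0099). Its call ended with DESeq2 (adjusted p = 0.101), limma-voom (adjusted p = 0.0723) and without Control replicate 2 (edgeR adjusted p = 0.0602), in a range that began at 9.7e-08, and without Control replicate 3 it was at −1.31. Tmod3, the gene of a pointed-end capping protein, rose by 1.04 ± 0.06. The edgeR adjusted p of every gene given as a rise or fall without its own p in the lists from the partner factors onward was below the threshold of 0.05.

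**Figure D5:**
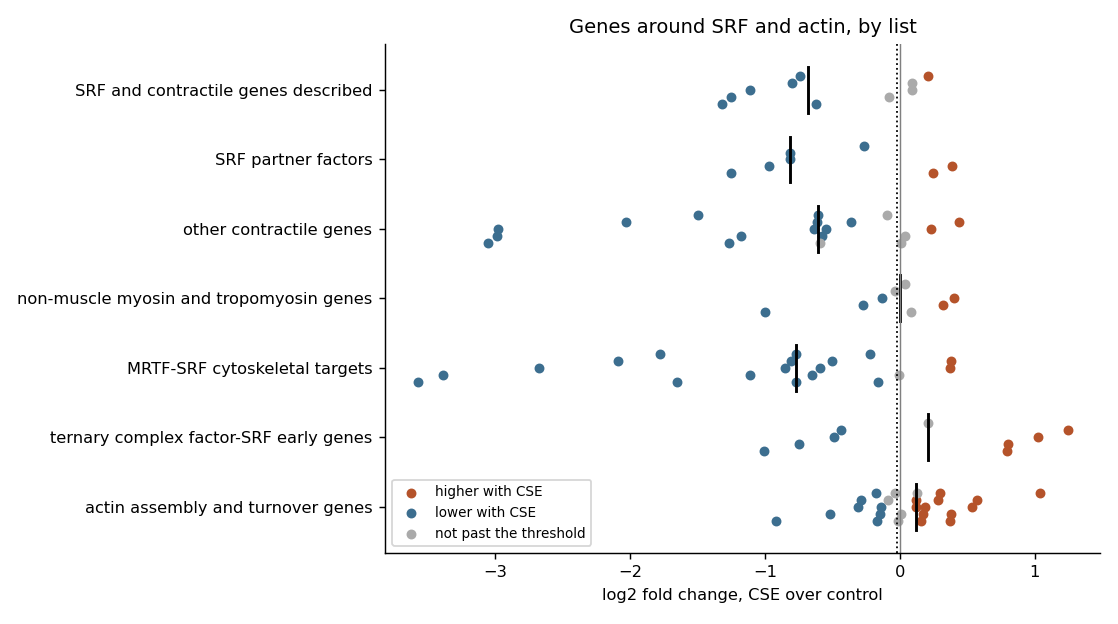
Log2 fold change of CSE over control (x axis) of each tested gene in the 10 genes described and in 6 lists around SRF and actin, coloured by the edgeR call, with the list median as a black bar and the median of all tested genes as a dotted line. The medians of the partner factors, other contractile genes and MRTF-SRF targets lie at −0.81, −0.61 and −0.77, and that of actin assembly genes at 0.12.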

How the data were processed

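The deposited table holds raw read counts per gene symbol, whole numbers with no normalization, in 1 column per library, each assigned to its sample by its name. HISAT2 2.0.4 and the build Rnor_6.0 are named in the submitters' processing notes with no role. Counting tool, strand setting and annotation were not given in the sources used here. No annotated gene of the RefSeq table of GRCr8 overlaps any of the 10 genes. Near-identical actin copies may share reads.

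Counts were filtered with filterByExpr (13390 of 21252 genes with any count kept, all 10 genes among them), scaled by TMM factors (0.932 to 0.944 with CSE, 1.06 to 1.07 in the control) and tested with edgeR 4.0.16 in R 4.3.3, using its 2-sided quasi-likelihood F test. P-values were adjusted by Benjamini and Hochberg's method across the whole table, and 0.05 was the threshold. SEs are |log2 fold change| / √F. A count of 0 allows up to 3 counts, or 0.142 to 0.177 CPM, for counting error only. Shares and ratios within a library were compared by exact 2-sided permutation tests, whose smallest p is 0.1.

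Alternatives were median-ratio, upper-quartile and total-count scaling, no filter, a filter of 1 CPM in all libraries of a group, DESeq2 1.42.0, limma-voom (limma 3.58.1), the replicate number as a block, and each library left out. No 2 libraries agreed within sampling noise (chi-square per degree of freedom 3.33 to 5.94 within groups). The genes and lists were chosen with earlier results of these data known. The text takes from each of 6 lists the first 4 tested genes in list order and the called genes with the largest rise and fall. Of 40 such genes with values, 32 follow this rule and 8 were chosen after their values were seen. A further list is not reported here.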

Additional observations from a re-analysis of the deposited data

How the results depend on the processing

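The calls of Srf, Acta2, Actb, Actg1, Tpm1 and Myh11 kept their direction and their side of the threshold under all 14 alternatives, while Actg2, Cnn1, Tagln and Myl9 did not. The number of the 10 genes called higher was 0 under upper-quartile scaling and 0 under total counts alone, instead of 1, and ranged from 1 to 3 when each library was left out, with 3 without Control replicate 3. The cause was not tested. With upper quartiles and with total counts, the log2 fold change of Tagln turned to −0.046 and −0.097 and that of Myl9 to −0.045 and −0.096. Tpm2 turned to −0.125 and −0.177 under the same settings and ranged from −0.036 to 0.050 when each library was left out, with negative values of −0.023 without CSE replicate 1, −0.0018 without Control replicate 1 and −0.036 without Control replicate 2. Myl12a turned to −0.096 and −0.147 and Pfn2 to −0.0093 and −0.061 with upper quartiles and total counts, and Egr2 ranged from −0.038 to 0.395 when each library was left out. Zyx turned to 0.0167 with DESeq2 and 0.0167 with median-ratio scaling, and ranged from −0.052 to 0.043 when each library was left out, with 0.043 without CSE replicate 2 and 0.016 without CSE replicate 3. The difference in the share of Actg1 among the actins, 0.07 percentage points, ranged from −0.141 to 0.313 points when each library was left out. Of the 87 tested genes in the 6 lists around SRF and actin, 15 were called higher under total counts alone, against 24 with TMM. Under total counts alone 37.2% of called genes were higher, and 40.3% under upper-quartile scaling, against 49.2% with TMM. The group sizes of 3 and the unknown source of the libraries limit what the p-values cover.

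Replicate numbers are shared between the groups, but same-numbered libraries did not deviate together (correlations of deviations from the group means of −0.03 to 0.02 over 13390 genes, against −0.08 to 0.09 for other pairs). With the replicate number as a block, 6 of the 10 genes were lower and 1 was higher, as without it, and over all genes 4821 were higher and 4935 lower, against 4867 and 5027.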

Other observations

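Myh9, which encodes the heavy chain of non-muscle myosin IIA and is abundant in most adherent cells, had 10, 2 and 4 counts in the CSE libraries and 12, 5 and 7 counts in the control libraries, too few to be tested. Flna, the filamin A gene, and Tmsb4x, the thymosin beta 4 gene, each had 0 counts in every library, as had Elk1. All 3 lie on chromosome X, and why their counts were 0 was not tested.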
